A study of Rattus norvegicus with 4 samples.

Results

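Mgmt and 9 enzymes of base excision repair were followed at 33 °C and at 39 °C in the rat cell line RTEC11, which comes from tracheal epithelium. The line was made from transgenic rats and in both groups carries a temperature-sensitive large T antigen of simian virus 40. At 33 °C, the permissive temperature, the antigen works and keeps the cells dividing. At 39 °C, the nonpermissive temperature, it loses its activity. The cells spent 3 days at their temperature, and each group has 2 arrays, 4 in all. Temperature and antigen activity changed together and cannot be told apart, RTEC11 is a cultured line that stands for no other tracheal culture, and the labels do not say whether the arrays of a group came from separate cultures. Errors and calls therefore measure only how these arrays scatter, and that scatter may be technical. The members are the probe sets whose annotation gives 1 gene symbol that is Mgmt, Mpg, Ogg1, Nthl1, Ung, Apex1, Polb, Xrcc1, Lig3 or Parp1. The 10 genes have 14 probe sets among the 15923 on the array. Mgmt was chosen by its rise in these same arrays, and the other 9 genes for their roles in repair with results of these arrays known. Their differences between temperatures are therefore given as a description, without p-values.

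Bases in DNA are damaged all the time by alkylating agents, oxidation and loss of amino groups, and cells repair them along separate routes. Mgmt, the alkylguanine-DNA alkyltransferase, takes an alkyl group off guanine by moving it onto a cysteine of its own, and each protein molecule does so only once. Base excision repair works in steps: a DNA glycosylase cuts out the damaged base, Apex1 nicks the strand at the empty site, DNA polymerase beta (Polb) fills the gap and DNA ligase III (Lig3), held by the scaffold protein Xrcc1, seals the nick, while Parp1 senses strand breaks and recruits Xrcc1. Airway epithelium meets inhaled oxidants and alkylating compounds, and these routes act on the lesions they leave.

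The intensities are the authors' values and were scaled to a common trimmed mean of 500.1 to 500.2 per array. Array medians lay between 152.7 and 174.3. Log2 levels below are log2(intensity + 16) after quantile normalization, and a change is the 39 °C mean minus the 33 °C mean, so that it understates the change of dim genes. A probe set was dim when its mean level fell in the lowest 40% of the array's probe sets, below a log2 level of 6.60 or an intensity of 81.1. The marker intensities that follow were turned back from the normalized log2 levels and are not the deposited values. Of 8 epithelial markers, 7 were above that limit and Krt5 was dim, with a summed intensity of 58139 to 61487.5 at 33 °C and 72111 to 73643 at 39 °C. Leukocyte markers were above it for 2 of 7 (Cd14 and Csf1r, with Ptprc at 10.3) and summed to 1055 to 1118 at 33 °C and 878 to 997 at 39 °C. None of 4 endothelial markers was above it, with sums of 33.0 to 72.8 and 56.4 to 126. Fibroblast markers were above it for 1 of 8 (Col3a1), with sums of 239 to 264 and 351 to 398, and smooth muscle markers for 2 of 5 (Acta2 and Des), with sums of 615 to 799 and 501 to 594. The part of these other markers in the results was not tested.

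The members did not move as one. At 39 °C Mgmt was far higher, Polb and Xrcc1 were 2.19-fold and 2.05-fold higher on the probe sets used, Nthl1 was 1.34-fold higher, Apex1 was 2.17-fold lower, and Mpg and Ung were 1.55-fold and 1.41-fold lower. Ogg1, Lig3 and Parp1 were not called. In the fit across all genes (limma, adjusted p under 0.05), 7 of the 10 members were called, where 49.1% of the 7016 genes tested were called. In these, 4 members were higher, against 23.1% of all genes, and 3 were lower, against 26.1%. The groups of 2 arrays did not overlap for 9 of the 10 members, against 75.1% of all genes. Nothing is read from these counts, because members were chosen with this comparison known. All 10 genes passed the filter on dim values, Mgmt by way of its 39 °C arrays. The median log2 change was 0.12 over the members and -0.04 over all genes tested, and the median size of a change was 0.56 against 0.37.

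**Figure D1:**
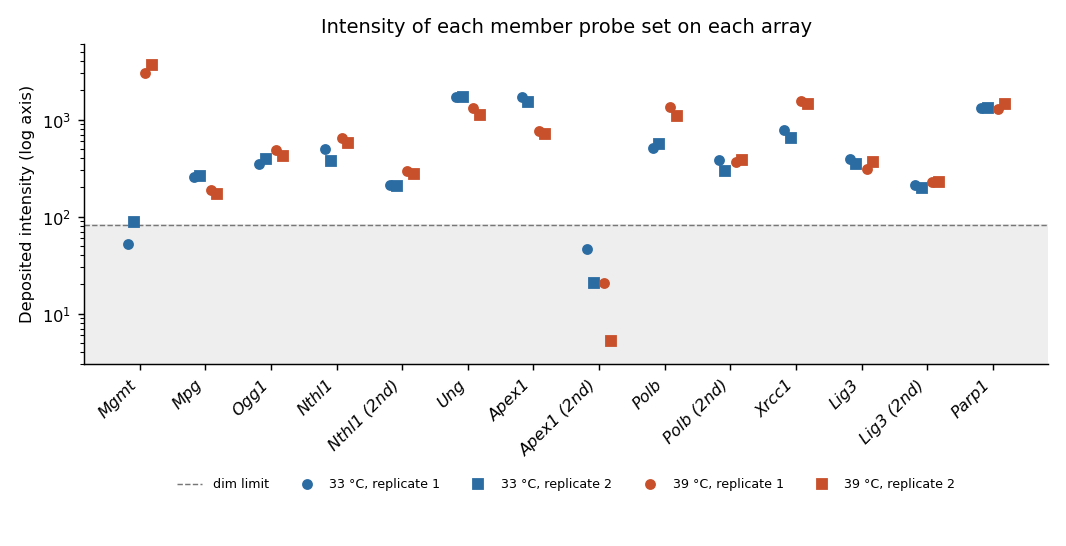
Deposited intensity (log axis) of the 14 member probe sets on the 4 arrays, with 33 °C in blue and 39 °C in orange, replicate 1 as circles and replicate 2 as squares; the grey zone lies under the dim limit of 81.1, which was set on normalized values, and "2nd" marks the dimmer probe set of a gene. Levels compare within a probe set only. Mgmt goes from 52.8 and 87.3 to 3029 and 3649.5, and the dimmer Apex1 probe set stays in the grey zone on all 4 arrays.

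Mgmt was measured by 1 probe set (1368311_at). Its intensities were 52.8 and 87.3 on the 33 °C arrays and 3029 and 3649.5 on the 39 °C arrays. Both 39 °C arrays were bright and far from both 33 °C arrays, of which replicate 1 lay under the dim limit and replicate 2 just above it. The log2 level went from 6.46 ± 0.42 to 11.75 ± 0.21 (SD, n = 2 each), a change of 5.29 ± 0.18 (SE). Every SE and interval in this report comes from a limma fit, which pools a gene's own scatter with that of genes at a similar mean level. It can be smaller than the gene's own SDs would give, as it is for Mgmt. Because the mean at 33 °C was dim, the size of the fold depended on the amount added to each intensity. It was 47.3-fold with 1 added, 39.2-fold with 16 added and 25.6-fold with 64 added. With the 33 °C level set to the dim limit itself, the 39 °C level was 35.6-fold higher. When each array was left out in turn the log2 change was between 5.00 and 5.59.

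Mgmt lies on chromosome 1 of the GRCr8 assembly, from base 201140832 to 201367481, and its span of 226650 bases is the longest among the members, the others spanning 2185 to 31812. Its promoter window, which runs from 250 bases before the start of the gene to 50 after it, is shown because Mgmt had the largest change of the members. It was taken from RefSeq (GRCr8, chr1:201140582-201140881, plus strand), and capitals mark the GC box letters (GGGCGG) and the E-box letters (CACGTG) on either strand.
Mgmt: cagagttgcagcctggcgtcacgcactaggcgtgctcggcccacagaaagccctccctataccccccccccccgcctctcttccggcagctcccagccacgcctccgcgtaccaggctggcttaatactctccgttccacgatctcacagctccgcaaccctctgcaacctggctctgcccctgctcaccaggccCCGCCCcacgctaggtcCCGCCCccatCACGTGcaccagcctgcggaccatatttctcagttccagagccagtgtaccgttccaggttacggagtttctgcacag
The window holds the GC box letters at positions -55 and -38 and the E-box letters at -28, counted from the start of the gene. The CCAAT box letters were not found in it.

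The genes along the chromosome around Mgmt did not share the size of its change. The 3 nearest protein-coding genes with a probe set were taken on each side in the RefSeq gene table of GRCr8. Nearest of all was Glrx3, a glutaredoxin that handles iron-sulphur clusters, 304 kb beyond the far end of Mgmt. Its intensities were 4235.6 and 4505.5 at 33 °C and 7330.1 and 7650.3 at 39 °C, and it rose by 0.88 ± 0.08 on the log2 scale (SE, adjusted p = 7.73e-06 by limma). On the other side Mki67, the proliferation marker, lies 1188 kb away and had a log2 change of 0.32 ± 0.12 (SE, adjusted p = 0.0493 by limma). The Mki67 call was lost with 3 of the 4 arrays left out in turn: the change was 0.13 without permissive replicate 1, 0.28 without nonpermissive replicate 1 and 0.36 without nonpermissive replicate 2. The phosphatase gene Ptpre was at 0.68 ± 0.24 (SE, adjusted p = 0.0354 by limma), a call lost when any of the 4 arrays was left out (0.52 to 0.84). Ppp2r2d, a regulatory subunit of a protein phosphatase, fell by 0.47 ± 0.10 on the log2 scale (SE, adjusted p = 0.00312 by limma). Mapk1ip1 had a change of -0.16 ± 0.20 (SE, adjusted p = 0.541 by limma), which turned to 0.087 without permissive replicate 1 and 0.0017 without nonpermissive replicate 1. Clrn3 was dim at both temperatures.

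**Figure D2:**
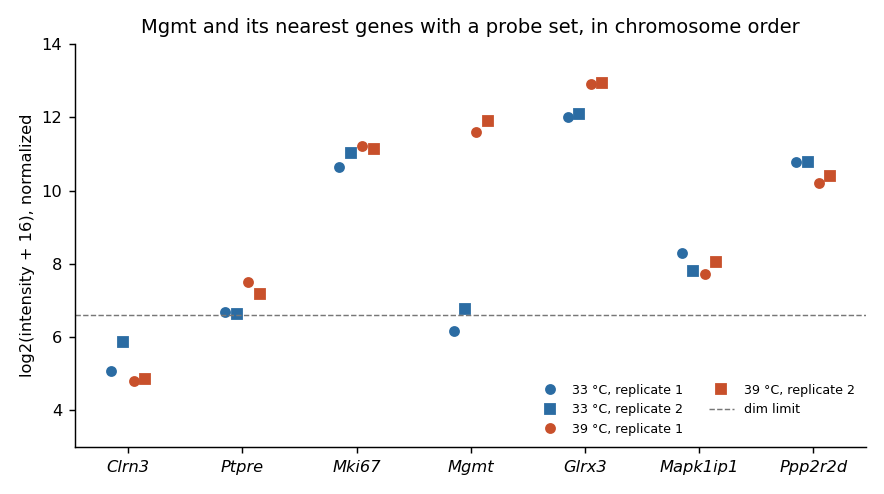
Normalized log2(intensity + 16) of Mgmt and the 3 nearest genes with a probe set on each side, in chromosome order, on the 4 arrays (33 °C blue, 39 °C orange, replicate 1 circles, replicate 2 squares), with the dim limit of 6.60 as a dashed line. Mgmt goes from 6.46 to 11.75, while its nearest neighbour Glrx3 goes from 12.05 to 12.92.

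The genes whose 4 levels, centred on their own mean, lay nearest to those of Mgmt were Rbp2, Ephx1, RT1-CE5, Penk and Krt4. The distances, summed over the 4 arrays as a Euclidean distance on the log2 scale, were 0.37, 0.64, 0.995, 1.33 and 1.34. With 4 arrays in 2 groups, this measure mostly orders genes by how close their change is to that of Mgmt. Scatter between replicates also enters it. Selenop, next in order at a distance of 1.42, had a change of 5.15, with dim 33 °C intensities of 30.6 and 2.3. Rbp2, a cellular retinol-binding protein, had intensities of 4.3 and 25.0 at 33 °C and 893.9 and 1190.3 at 39 °C. Ephx1, the microsomal epoxide hydrolase, had 111.6 and 126.2 at 33 °C and 3835.5 and 3715.4 at 39 °C. Both groups were well apart in each. RT1-CE5 is a class I histocompatibility gene with near-identical relatives that its probes may also detect, Penk encodes the enkephalin precursor and Krt4 is a keratin of stratified epithelia. The RT1-CE5 change was 4.46 on the probe set used and 2.31 when its probe sets were averaged. Of the 5 genes, Ephx1 was the one not dim at 33 °C.

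The glycosylases open base excision repair and differed in direction. Mpg, which removes alkylated adenine and guanine bases, had intensities of 257.6 and 261 at 33 °C and 188.3 and 171.7 at 39 °C. Both 39 °C arrays were lower. The log2 change of Mpg was -0.63 ± 0.17 (SE), and the call did not hold once nonpermissive replicate 2 was removed (-0.58). Ung, which removes uracil, had 1709.5 and 1718.6 at 33 °C and 1312.3 and 1109.7 at 39 °C. Again both 39 °C arrays were lower, and the log2 change of Ung was -0.49 ± 0.11 (SE). Its range with each array left out was -0.62 to -0.37.

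Nthl1 and Ogg1 act on oxidised bases, Nthl1 on pyrimidines and Ogg1 on guanine. The brighter Nthl1 probe set had intensities of 491.9 and 369.8 at 33 °C and 648 and 571.5 at 39 °C, and the other had 210.3 and 204.9 at 33 °C and 298.2 and 273.2 at 39 °C. All 39 °C values of either probe set lay above its 33 °C values. The log2 changes were 0.42 ± 0.15 for the brighter and 0.29 ± 0.16 for the other (SE), and only the brighter was called. Here and below, the error or interval of a gene's other probe set comes from the fit to all probe sets without a filter. In that fit neither Nthl1 probe set was called. The Nthl1 call was lost without permissive replicate 2 (0.22), without nonpermissive replicate 1 (0.32) and without nonpermissive replicate 2 (0.52), and under median centring (0.35) or spike-in scaling (0.12). Ogg1 had 344.7 and 390.4 at 33 °C and 482.6 and 425.4 at 39 °C. The 39 °C arrays were both higher, by less than the fit could call, with a log2 change of 0.20 and a 95% interval of -0.11 to 0.51. Scaling to spike-in controls on the array, described below, turned the Ogg1 change to -0.088.

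Apex1, the endonuclease that follows every one of these glycosylases, was the member that was lowest at 39 °C relative to 33 °C. Its bright probe set (1386910_a_at) had intensities of 1721.7 and 1504.6 at 33 °C and 768.8 and 713.1 at 39 °C. The 39 °C arrays were far below both 33 °C arrays. The log2 level went from 10.66 ± 0.12 to 9.54 ± 0.09 (SD, n = 2 each), a change of -1.12 ± 0.11 (SE). The other Apex1 probe set (1371217_at) was dim on all 4 arrays, with intensities of 45.9 and 20.6 at 33 °C and 20.5 and 5.2 at 39 °C. Of the 14 member probe sets it was the one left out as dim.

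The gap-filling gene Polb, on 1 of its 2 probe sets, and the scaffold gene Xrcc1 had higher intensities at 39 °C. Polb was read by 2 probe sets that gave different results. The brighter (1368341_at) had intensities of 510.9 and 554.6 at 33 °C and 1352.6 and 1095.7 at 39 °C, a log2 change of 1.13 ± 0.13 (SE) or 2.19-fold. The other (1387142_at) had 383.3 and 292.3 at 33 °C and 364.9 and 379 at 39 °C, with overlapping groups, a log2 change of 0.04 ± 0.16 (SE) and a 95% interval of -0.35 to 0.43. Both were above the dim limit on every array, so the higher level of Polb rests on the brighter probe set. The mean of both was called at a log2 change of 0.58. Xrcc1 had intensities of 786.2 and 640.1 at 33 °C and 1557.1 and 1430.8 at 39 °C. Its 39 °C arrays were both well above the 33 °C arrays, and the log2 level went from 9.52 ± 0.19 to 10.56 ± 0.09 (SD, n = 2 each), a change of 1.04 ± 0.12 (SE) or 2.05-fold.

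Lig3 and Parp1 were not called after quantile normalization. Lig3, which Xrcc1 binds, had intensities of 388.1 and 345.2 at 33 °C and 311 and 363.9 at 39 °C by its brighter probe set, and 214.2 and 199 against 226.8 and 229.6 by the other. The normalized log2 changes of Lig3 were -0.23 (95% interval -0.56 to 0.10) and -0.01 (-0.41 to 0.40). The brighter probe set was called lower under spike-in scaling (-0.50). Parp1 had 1308.1 and 1308.8 at 33 °C and 1271 and 1436.9 at 39 °C, so that the 33 °C arrays lay between the 39 °C arrays. The Parp1 change was 0.04, with a 95% interval of -0.19 to 0.27. It turned to -0.10 under median centring, to -0.34 under spike-in scaling, where it was called lower, and to -0.046 without nonpermissive replicate 2.

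**Figure D3:**
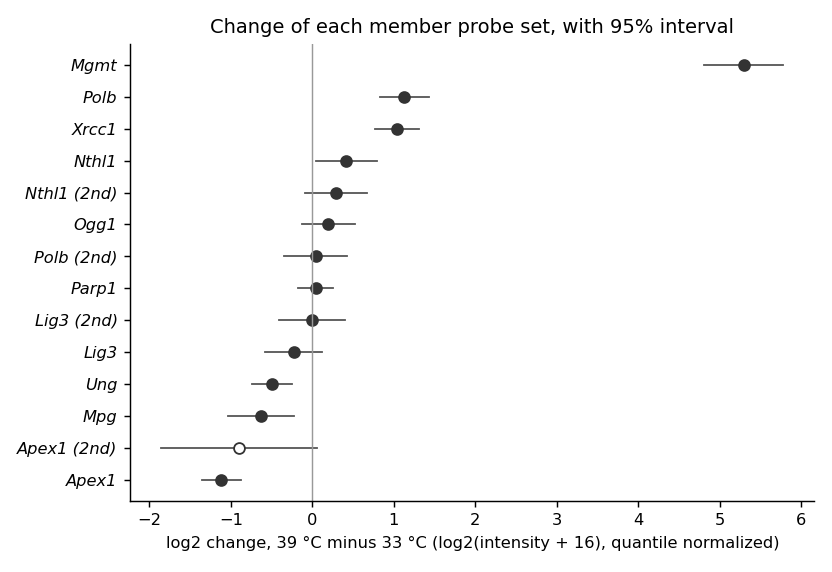
Log2 change (39 °C minus 33 °C, log2(intensity + 16), quantile normalized) of the 14 member probe sets with 95% intervals from the limma fit to all probe sets without a filter; the open circle is the probe set that was dim, and "2nd" marks the dimmer probe set of a gene. Mgmt stands at 5.29, the brighter Polb probe set at 1.13 with the other at 0.04, and the bright Apex1 probe set at -1.12.

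In the fit to all probe sets above the dim limit, 7 of the 13 member probe sets that passed were called, against 47.2% of all 9520. The 4 higher were those of Mgmt, Xrcc1 and the brighter ones of Polb and Nthl1, and the 3 lower were those of Mpg, Ung and the bright one of Apex1. For each of the 3 genes with a further probe set above the limit, Nthl1, Polb and Lig3, that probe set was not called.

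The log2 changes moved with the choice of scaling. The median log2 change of all genes was -0.04 in quantile normalized values, 0.02 in the values as deposited, -0.13 under median centring of each array and -0.36 under spike-in scaling, which sets each array by its 24 poly-A control probe sets. Of the calls over all genes, 47.0%, 52.3%, 36.7% and 19.2% were higher in the same order. The last 3 scalings differ by 1 shift per array, so a gene's distance from the median of all genes is the same in them by construction. In these Mgmt was 5.29 above it, Polb 1.15 above, Xrcc1 1.03 above, Nthl1 0.47 above, Ogg1 0.27 above, Parp1 0.02 above, and Lig3, Mpg, Ung and Apex1 had differences from it of -0.14, -0.51, -0.52 and -1.13. After quantile normalization the distances were 5.34 for Mgmt, 1.17 for Polb, 1.08 for Xrcc1, -0.59 for Mpg, -0.45 for Ung and -1.07 for Apex1, with Mpg and Ung in the opposite order. Mgmt, Polb on its brighter probe set and Xrcc1 were called higher and Mpg, Ung and Apex1 lower under each of the 4 scalings. The other Polb probe set, at 0.04 after quantile normalization, was not followed under the other scalings. The spike-in scaling rests on controls that were not bright. Before normalization their mean log2 level was 6.63 and 6.69 at 33 °C and 6.99 and 7.09 at 39 °C. These means lay above the dim limit of 6.60, which was set on normalized values, and below the median of each array. Whether controls at this level scale the arrays reliably was not tested.

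**Figure D4:**
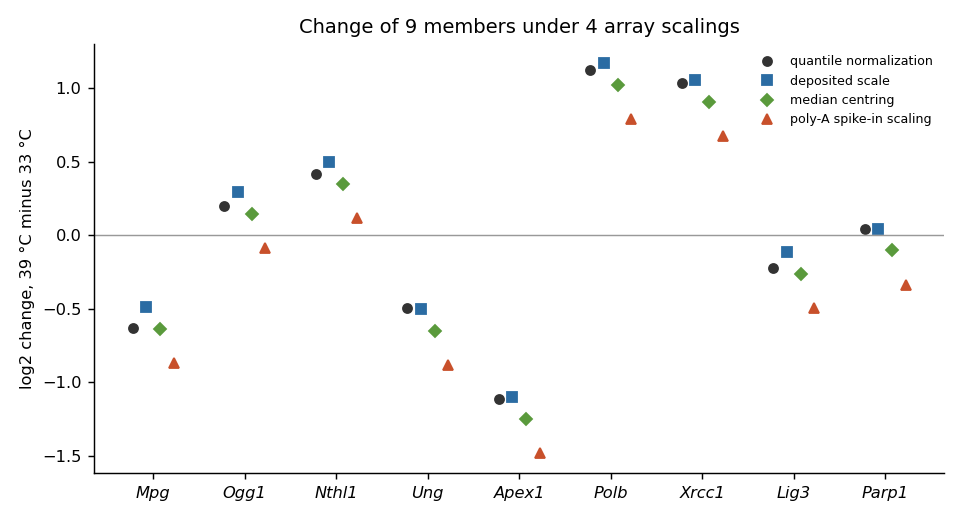
Log2 change (39 °C minus 33 °C) of 9 members under 4 scalings of the arrays, with Mgmt left out for its size; each symbol is 1 scaling. Each gene is shown by its brighter probe set. Polb, on that probe set, and Xrcc1 stay above 0 and Mpg, Ung and Apex1 below 0 under all 4. Ogg1 goes from 0.20 to -0.088 and Parp1 from 0.04 to -0.34 between quantile normalization and spike-in scaling.

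Promoter windows were found in the RefSeq table for 9 of the 10 members, and none is listed there for Polb. GC content was 51.3% to 70.3%, with a median of 51.7% over the 33469 windows of 300 bases, which include predicted genes. The members' windows held 12 to 37 CpG pairs, against a median of 7. The GC box letters (GGGCGG), searched on both strands like every motif here, were found in 8 of the 9 and in 33.1% of all windows. The CCAAT box letters were in 4 of 9 against 37.5% of all windows, and the E-box letters (CACGTG) in 4 of 9 against 6.42%. The TATA box letters (TATAAA) were in 0 of the 9 and in 14.2% of all windows. The first letters of a cyclic AMP response element (TGACGT) and the p53 half-site consensus were also in 0 of the 9, and in 7.94% and 7.98% of all windows. The windows compared were not matched for GC or CpG content, so nothing particular to the members is read from these shares. The E-box letters were in the windows of Mgmt (higher), Apex1 and Ung (lower) and Lig3 (not called), so members with it did not share a direction. The windows of Apex1 and Ung, both lower, and of Xrcc1, which was higher, are shown to set them beside that of Mgmt, with the GC box, CCAAT box and E-box letters of either strand in capitals. The start that the RefSeq table uses can lie inside the longest gene model, as it does for these 3. They are GRCr8 chr15:26617976-26618275 (plus strand), chr12:48153996-48154295 (minus strand) and chr1:89268939-89269238 (plus strand).
Apex1: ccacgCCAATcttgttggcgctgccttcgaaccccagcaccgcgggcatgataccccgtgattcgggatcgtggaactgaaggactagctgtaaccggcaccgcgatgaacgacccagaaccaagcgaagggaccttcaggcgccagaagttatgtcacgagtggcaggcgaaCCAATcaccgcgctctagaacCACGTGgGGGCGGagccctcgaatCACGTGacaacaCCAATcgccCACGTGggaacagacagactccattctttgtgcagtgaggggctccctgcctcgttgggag
Ung: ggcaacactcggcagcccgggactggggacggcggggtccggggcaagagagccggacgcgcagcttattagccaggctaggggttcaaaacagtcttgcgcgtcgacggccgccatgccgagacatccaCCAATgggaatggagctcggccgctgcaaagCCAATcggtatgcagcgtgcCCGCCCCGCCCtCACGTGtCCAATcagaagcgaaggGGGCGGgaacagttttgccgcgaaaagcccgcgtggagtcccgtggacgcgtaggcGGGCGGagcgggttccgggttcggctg
Xrcc1: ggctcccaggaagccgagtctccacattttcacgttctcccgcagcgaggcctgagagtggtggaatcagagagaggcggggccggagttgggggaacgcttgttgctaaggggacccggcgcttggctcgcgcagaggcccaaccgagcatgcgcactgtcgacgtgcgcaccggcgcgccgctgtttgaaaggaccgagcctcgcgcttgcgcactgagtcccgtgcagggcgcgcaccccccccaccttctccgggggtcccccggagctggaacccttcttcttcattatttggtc
The Apex1 window has the E-box letters 3 times, at positions -56, -32 and -11, the CCAAT box letters 3 times and the GC box letters at -49, next to an E-box. The Ung window has the GC box letters 4 times, a pair of them overlapping, the CCAAT box letters 3 times and the E-box letters at -57. The Xrcc1 window has none of the 3 motifs. A match is a run of letters and not a measured binding site.

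The further repair lists here and in the next paragraph were chosen with earlier results of these arrays known. Their calls and adjusted p-values are therefore a description, and the genes named are mainly the furthest called. A list of 44 further genes was taken from base excision and strand break repair. It holds further glycosylases, the enzymes that complete base excision repair by the long-patch route and other strand break repair factors. Other direct reversal enzymes, nucleotide pool enzymes and regulatory factors are also in it. Of the 44 genes, 32 had a probe set and all 32 passed the filter. In this list 14 genes rose, 4 fell and 14 were not called, 56.25% called with 43.75% higher and 12.5% lower. Most of the 14 that rose encode proteins that DNA replication also uses, among them subunits of the clamp loader and polymerase delta. The list itself holds many such genes, some of which were not called, and Pold2, described below, fell. Of the further glycosylases, only Mutyh and Tdg were tested, and neither was called. The log2 change of Mutyh was 0.66 ± 0.26 (SE), with groups that did not overlap, and that of Tdg was 0.08 ± 0.11 (SE). Of all genes tested, 49.1% were called, 23.1% higher and 26.1% lower, and nothing particular to the list is read from its counts. The list's median log2 change was 0.29, against -0.04 over all genes. Rfc4, a subunit of the clamp loader, rose by 0.95 ± 0.09 (SE, adjusted p = 1.02e-05 by limma). Poll, the gap-filling polymerase lambda, was at 0.84 ± 0.22 (SE, adjusted p = 0.00774 by limma), a call lost without nonpermissive replicate 2 (0.58). Pold4, a small subunit of polymerase delta, rose by 0.78 ± 0.14, whereas Pold2 of the same polymerase fell by 0.75 ± 0.09 on the log2 scale. Huwe1, a ubiquitin ligase that acts on Polb, fell by 0.41 ± 0.10, a call lost when its probe sets were averaged (-0.37). Alkbh3, which reverses other alkyl lesions than Mgmt does, was at -0.38 ± 0.13 (SE, adjusted p = 0.0343 by limma), and was not called once permissive replicate 1 (-0.30) or nonpermissive replicate 2 (-0.22) was removed, nor on the deposited scale (-0.33). Alkbh2, of the same family, was at 0.23 ± 0.16 and did not pass. Under spike-in scaling 5 of the 32 were higher and 6 lower, and their median was -0.086.

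Nucleotide excision repair removes bulky lesions. Of 24 genes 18 were tested, and 1 rose, 6 fell and 11 were not called, 38.9% called with 5.56% higher and 33.3% lower, beside the 49.1%, 23.1% and 26.1% of all genes. Their median log2 change was -0.19. Under spike-in scaling 0 were higher and 12 lower. The number called was 3 without permissive replicate 2 and 1 without nonpermissive replicate 2. Ercc1, part of the nuclease that cuts on one side of the lesion, fell by 1.53 ± 0.12 on the log2 scale (SE, adjusted p = 1.93e-06 by limma), from intensities of 1651.4 and 1969.2 to 601.4 and 644.2, and was the gene called without nonpermissive replicate 2. Ercc3 was at -0.45 ± 0.11 and Rad23b at -0.40 ± 0.10, and both calls were lost without nonpermissive replicate 2 (-0.36 and -0.26), that of Rad23b also without the intensity trend. The damage-binding protein Ddb1 was at 0.24 ± 0.09 (SE), a call lost when any array was left out (0.19 to 0.29) and on the deposited scale (0.16), and its change was -0.22 with the spike-in scaling. Mismatch repair, which acts on the mispairs that alkylated guanine forms when Mgmt has not removed the lesion, was read by 1 of 8 genes, Pms2. Its change of -0.35 ± 0.13 (SE, adjusted p = 0.0451 by limma) kept its call without permissive replicate 2 and lost it without any other array (-0.27 to -0.36).

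**Figure D5:**
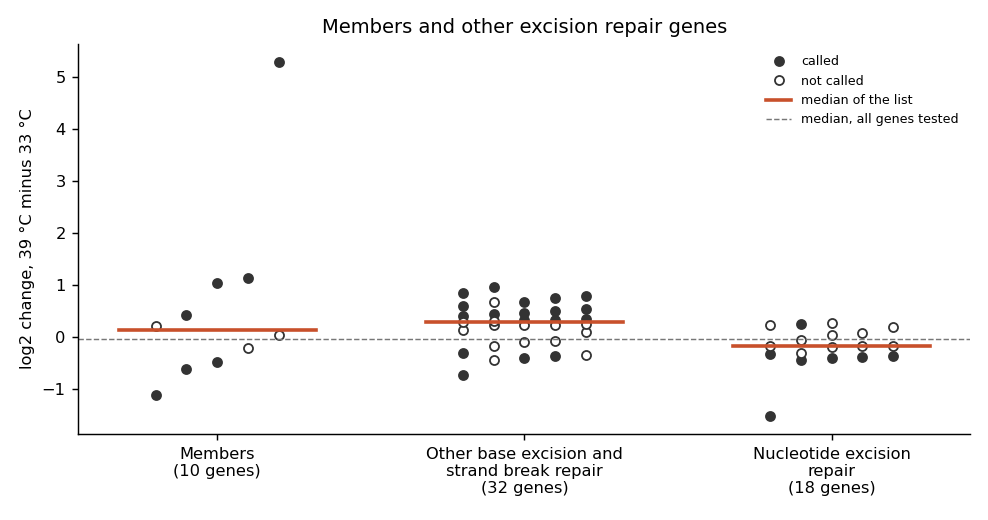
Log2 change (39 °C minus 33 °C) of the 10 members, 32 other base excision and strand break repair genes and 18 nucleotide excision repair genes; filled circles were called (limma, adjusted p under 0.05), open circles were not, orange bars are list medians (0.12, 0.29 and -0.19) and the dashed line is the median of all genes tested (-0.04). Mgmt is the point at 5.29, and the lowest point is Ercc1 at -1.53.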

How the data were processed

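Per the labels, DNase-treated total RNA (5 µg) became biotin-labelled cRNA on an Affymetrix rat array, 1 per sample. The authors deposited linear intensities scaled per array; for the summarising software, nothing is given in the sources used here. Titles gave the groups. The members and lists were chosen with earlier results of these data known. The medians of the arrays differed by 0.174 (log2), over a limit of 0.1, so log2(intensity + 16) was quantile normalized without 57 control probe sets. GEO's platform annotation gave 1 symbol for 12783 probe sets, several (not used) for 312 and none for 2771; 12754 matched RefSeq by Entrez identifier. Each of 10411 genes took its brightest probe set (_x_at last), and 3395 dim genes were left out. The 7016 others were fitted with limma 3.58.1 in R 4.3.3 (intensity trend, two-sided, Benjamini-Hochberg over all genes, threshold 0.05). An exact permutation test of 2 arrays against 2 cannot go below p = 0.333 and was not used. Named genes are the members, the 3 furthest called in each direction of each further list, the 5 nearest to Mgmt in pattern and its 3 nearest genes on each side. Added after their values were seen were Alkbh2, as the relative of Alkbh3, and Selenop, as the next gene in pattern. Mutyh and Tdg, as the further glycosylases tested, were also added then. Tested on simulated data of 7015 genes, the fit found 68.7% of 67 genes planted at a log2 change of 0.5, 97.0% of 67 at 1 and 100% of 66 at 2, and 19 of its 196 calls were unchanged genes. That is a larger share than the threshold of 0.05. The planted genes lay well above the dim limit and were a small share of all genes. Their recovery therefore does not cover dim values or a change as wide as in the real arrays. Alternatives were other scalings, 1 or 64 added, no dim filter or the 60th percentile, averaged or separate probe sets, no trend, a replicate block and each array removed. The number of arrays limits the precision. Plots used matplotlib 3.10.9 (Python 3.11.15).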

Additional observations from a re-analysis of the deposited data

How the results depend on the processing

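The number of members called was 7, and 5 to 8 under all alternatives. The 60th percentile filter left Mpg out as dim, so that 9 members were tested there and 2 were called lower. Members called lower went from 3 to 5 with spike-in scaling (Lig3 and Parp1 added), and were 2 to 3 with each array left out in turn; members called higher were 3 or 4 throughout, the difference being Nthl1. The log2 change of Mgmt, which was chosen by its rise, was 4.68 to 5.59. The other base excision list had 11 called with spike-in scaling, against 18, and 13 to 17 with each array left out. Nucleotide excision repair had 12 called with spike-in scaling and 2 without the intensity trend, against 7, and 1 to 6 with each array left out. Mismatch repair, a list of 1 tested gene, had 0 called on the deposited scale, without a filter and without the trend, and 0 to 1 with each array left out. With spike-in scaling the changes of Ogg1 (-0.088), Parp1 (-0.34), Ddb1 (-0.22) and Mki67 (-0.10) turned negative, Parp1 also with median centring (-0.10) and without nonpermissive replicate 2; with each array left out, Parp1 ranged from -0.046 to 0.13 and Mapk1ip1 from -0.41 to 0.087. The calls of Nthl1, Mki67, Ddb1, Pms2, Ptpre and Alkbh3 were lost under 8, 10, 9, 6, 6 and 5 alternatives. Same-numbered arrays had deviations that correlated at 0.0068, so the numbers were not taken to pair them; with the replicate block 7 members, 21 of the other base excision list, 7 of nucleotide excision repair, 1 of mismatch repair and 3706 of all genes were called, and the log2 change of Mgmt was 5.29.

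Dimness limits Mgmt at 33 °C, the other Apex1 probe set and, at 33 °C, the genes nearest to Mgmt in pattern other than Ephx1. Results under spike-in scaling rest on controls whose mean level lay between the dim limit and the array median, and its reliability was not tested.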
